A study of Mus musculus with 19 samples.

Results

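Potassium channel genes were described across 16 RNA-seq samples of mouse brain. The members were the protein-coding genes whose symbol is Kcn followed by lower-case letters and a number, such as Kcna1 or Kcnj10, and 92 of the 41388 gene identifiers in the count files met that rule. Of those identifiers 21397 are protein-coding. The members fall into 20 subfamilies by symbol, which were grouped by what they encode into 6 classes. These were 30 voltage-gated pore subunits (Kcna, Kcnb, Kcnc, Kcnd, Kcnh and Kcnq), 10 silent modifiers (Kcnf, Kcng, Kcns and Kcnv), 15 inward rectifiers (Kcnj), 14 two-pore-domain channels (Kcnk), 8 calcium- or sodium-activated channels (Kcnma, Kcnn, Kcnt and Kcnu) and 15 auxiliary subunits (Kcnab, Kcne, Kcnip and Kcnmb). Kcnu was placed with Kcnma, Kcnn and Kcnt, though the name of that class does not describe its gating.

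The study asked how loss of a functional copy of Wiz, which encodes a zinc finger protein that associates with the G9a/GLP histone methyltransferases, alters gene expression in the brain. Cerebellum came from male mice at 56 days post partum (3 Wiz +/+ and 3 Wiz MommeD30/+). Whole brain came from embryos at 13.5 days post coitum (E13.5), with 3 male brains and 2 female brains of each genotype. MommeD30 is a chemically induced frameshift allele carried by a single FVB/NJ line, which is kept by crossing to mice homozygous for a multicopy GFP transgene with erythroid control elements, so that both genotypes carry the transgene. Levels are given as CPM, the read count scaled to library size with edgeR's TMM factors over all 16 samples. CPM per kb divides by the length of a gene's exons, and this scale was used to compare the levels of single genes. Summed levels, and the shares taken from them, used CPM with no correction for exon length.

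Potassium channels let potassium cross the membrane along its gradient and so set the resting potential, shape the action potential and limit firing. Voltage-gated pore subunits open on depolarisation, inward rectifiers and two-pore-domain channels carry current near rest, and calcium- or sodium-activated channels couple firing to ion entry. Silent modifiers form no channel alone and join other pore subunits, while auxiliary subunits change the gating or delivery of a pore. In adult cerebellum, fast-spiking neurons are known for Kcnc subunits and glia for Kcnj10.

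Total counts per sample ran from 16386029 to 50459755. Wiz had 104 to 105 CPM in Wiz +/+ and 73.1 to 74.7 CPM in Wiz MommeD30/+ cerebellum, 173 to 189.9 against 112 to 119 CPM in male brain and 176 to 184 against 119.9 to 122 CPM in female brain, so that the groups did not overlap. The summed level of 5 Purkinje cell markers was 6547 to 7042 CPM in cerebellum and 49.7 to 63.9 CPM in the embryonic brains, and that of 5 progenitor markers was 176 to 196 CPM against 785 to 1107 CPM. Of the progenitor markers, Pax6 went the other way, at 137 to 143 CPM in cerebellum and 60.5 to 103 CPM in the embryonic brains. Tissue, age and any batch between the 2 sets cannot be told apart. In bulk tissue, fewer cells of a type and less RNA per cell cannot be told apart either.

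A few genes held much of the potassium channel signal in both tissues. The 10 members with the most CPM held 56.8% of the summed CPM of the members in male Wiz +/+ E13.5 brain and 68.5% in Wiz +/+ cerebellum. In E13.5 brain, leading members per kb were the ERG channel subunit Kcnh2 (8.65 ± 0.602 CPM per kb, SD, n = 3), the A-type subunit Kcnd3 (8.47 ± 0.329) and the small-conductance calcium-activated channel Kcnn1 (8.15 ± 0.254). These 3 lay within 1 SD of Kcnh2 of each other, so that their order was not resolved. In the other classes the members highest per kb were Kcnk2 (5.94 ± 0.222), a mechanosensitive leak channel, Kcne2 (5.11 ± 0.622), the glial Kcnj10 (2.76 ± 0.359) and the silent modifier Kcnf1 (2.1 ± 0.121). Of the 92 members, 25 had a mean under 1 CPM in this group.

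In adult cerebellum the summed level was higher and other genes led. All members together had 6888 ± 64.9 CPM (SD, n = 3) in Wiz +/+ cerebellum and 1230.1 ± 68.5 CPM (SD, n = 3) in Wiz +/+ male brain. Leading members per kb in cerebellum were the axonal subunit Kcna1 (104 ± 0.849 CPM per kb), the two-pore-domain channel Kcnk1 (95.7 ± 5.9) and the fast delayed rectifier Kcnc1 (94.1 ± 1.85). Kcnk1 and Kcnc1 differed by less than the SD of Kcnk1, and Kcna1 stood above both by more than that SD. The leading inward rectifiers per kb were Kcnj10 (77.3 ± 4.84) and the G protein-gated Kcnj9 (48.1 ± 0.735). The sodium-activated Kcnt1 had 58.3 ± 1.22 CPM per kb, the silent modifier Kcng4 48.3 ± 0.769, the Kcnd partner Kcnip4 38.2 ± 1.57 and the Kcna partner Kcnab2 30.8 ± 0.73. In this group 28 members had a mean under 1 CPM.

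**Figure D1:**
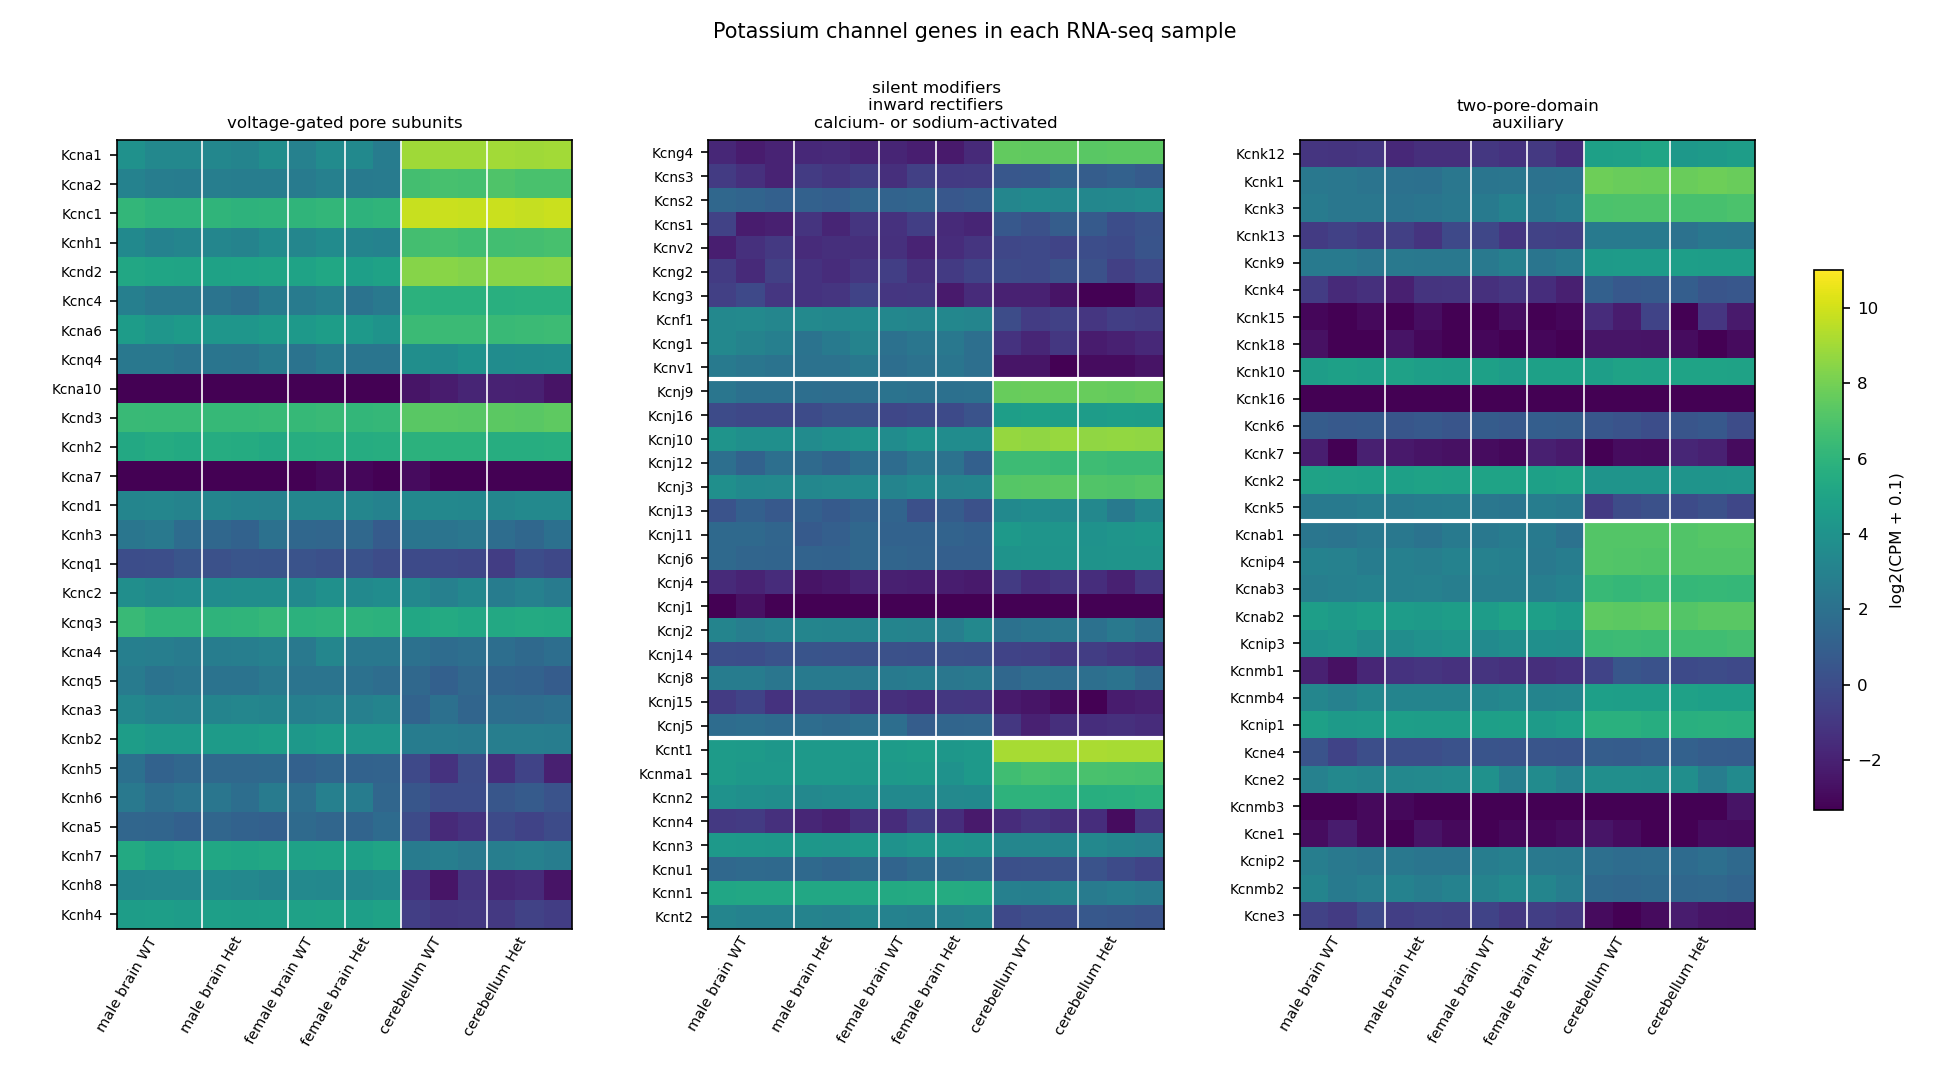
Colour gives log2(CPM + 0.1) for 89 of the 92 members (rows, grouped by class and ordered within a class by the difference between cerebellum and male brain) in each of the 16 samples (columns, grouped by tissue, sex and genotype). Every class holds rows that step up and rows that step down between the embryonic brains and the cerebellums, while samples of the 2 genotypes of a tissue look alike.

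Most members differed between the tissues. In Wiz +/+ animals, 62 of the 82 members tested differed at least 2-fold with an adjusted p of at most 0.05 (edgeR's quasi-likelihood test, Benjamini-Hochberg over all genes), 40 higher in cerebellum and 22 higher in male E13.5 brain. Of all 16840 genes tested 44.1% passed that rule, 22.6% higher in cerebellum and 21.5% higher in brain. The median log2 difference of the members, cerebellum over brain, was 0.89, against -0.02 over all genes tested. Among the members tested, 8 had a mean count under 10 in cerebellum and 3 had one under 10 in brain, so that they passed the filter on low counts through the tissue in which they were higher, and the counts are a description. Scaling by total counts in place of TMM shifted log2 differences by -0.21, and 38 members were then called higher in cerebellum and 28 higher in brain.

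Among the voltage-gated pore subunits, 9 of the 28 tested were called higher in cerebellum and 9 higher in brain. The first 9 included the Kcnc genes Kcnc1 and Kcnc4, the axonal subunits Kcna1, Kcna2 and Kcna6, and Kcnd2, an A-type subunit. Kcna1 had 493, 501 and 499.9 CPM in cerebellum and 14.8, 10.4 and 10.4 CPM in brain, a log2 difference of 5.33 ± 0.09 (SE). Kcnc1 differed by 3.79 ± 0.06, Kcna2 by 3.94 ± 0.07, Kcnd2 by 3.25 ± 0.06 and Kcna6 by 1.96 ± 0.07. Of the exon bases of Kcna6, 39.6% also lie in Gm26673 on the other strand, so that reads of both may be mixed. The genes higher in brain were led by the Kcnh subfamily, of which 5 were called in that direction. Kcnh4, an Elk-type subunit, had 25.4, 26.1 and 24.3 CPM in brain and 0.541, 0.408 and 0.428 CPM in cerebellum (-5.77 ± 0.12). Kcnh8, of the same type, had 9.94, 10.2 and 10.1 CPM against 0.325, 0.0742 and 0.357 CPM (-5.29 ± 0.20). The tissues did not overlap for any of these genes.

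Kcnh3, the third Elk-type subunit, showed no such step, at 4.49 ± 1.12 CPM in brain and 4.69 ± 0.258 CPM in cerebellum (SD, n = 3 each), a log2 difference with a 95% interval of -0.20 to 0.40. Kcnq3, a subunit of the M-current that restrains repetitive firing, was 71.4 ± 9.22 CPM in brain and 40.3 ± 2.8 CPM in cerebellum (-0.84 ± 0.08). The A-type subunit Kcnd3 (0.97 ± 0.04) also differed by less than 2-fold.

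The silent modifiers split widely. Kcng4 had 186, 185 and 181 CPM in Wiz +/+ cerebellum and 0.207, 0.116 and 0.165 CPM in Wiz +/+ male brain, where 19 reads were counted over 3 libraries. Its log2 difference of 9.98 ± 0.09 was the largest of the members tested. Kcns2 was also higher in cerebellum, at 10.1 ± 0.991 against 2.34 ± 0.313 CPM (2.09 ± 0.12). In the other direction, Kcnv1 had 5.89, 4.92 and 4.3 CPM in brain and 0.0722, 0.0742 and 0 CPM in cerebellum, where 4 reads were counted in all. Kcng1 had 8.57 ± 1.62 CPM in brain and 0.301 ± 0.106 CPM in cerebellum (-4.83 ± 0.24), and Kcnf1 10.1 ± 0.58 and 0.652 ± 0.221 CPM (-3.93 ± 0.16). All 10 silent modifiers were called, 6 higher in cerebellum and 4 higher in brain, and 5 of them (Kcng1, Kcng3, Kcng4, Kcnv1 and Kcnv2) had a mean count under 10 in the tissue in which they were lower.

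Inward rectifiers and two-pore-domain channels were mostly higher in cerebellum. Of 13 inward rectifiers tested, 8 were called higher in cerebellum and 2 higher in brain. Kcnj9 had 203, 209.6 and 205 CPM in cerebellum and 4.78, 3.88 and 3.77 CPM in brain (5.59 ± 0.07), and its G protein-gated partners Kcnj3 and Kcnj6 differed by 3.71 ± 0.08 and 2.65 ± 0.09. The glial pair Kcnj10 and Kcnj16 differed by 4.78 ± 0.08 and 5.03 ± 0.11. Kcnj5, another G protein-gated subunit, was higher in brain, at 3.29 ± 0.237 against 0.277 ± 0.125 CPM (-3.54 ± 0.24). Kcnj8, a pore subunit of vascular ATP-sensitive channels, had 5.8 ± 0.897 CPM in brain and 3.07 ± 0.383 CPM in cerebellum, less than a 2-fold difference.

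Of 10 two-pore-domain channels tested, 6 were called higher in cerebellum and 1, Kcnk5, higher in brain. Kcnk12, a THIK-type subunit, had 27.6, 29.2 and 34 CPM in cerebellum and 0.358, 0.347 and 0.386 CPM in brain (6.35 ± 0.14). Kcnk1 had 229, 209.7 and 203 CPM against 5.17, 5.04 and 4.38 CPM (5.45 ± 0.07). The acid-sensitive leak channels Kcnk3 and Kcnk9 differed by 4.51 ± 0.07 and 2.09 ± 0.08. Kcnk10 had 28.5 ± 2.19 and 26.1 ± 1.52 CPM, a log2 difference of 0.14 ± 0.06 under TMM and -0.07 under total counts.

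Paralogs moved in opposite directions in the calcium- or sodium-activated class. Kcnt1 had 554 ± 11.6 CPM in cerebellum and 21.6 ± 1.95 CPM in brain (4.68 ± 0.06), whereas Kcnt2, the other Slo2-type channel, had 0.908 ± 0.105 and 8.28 ± 0.573 CPM (-3.20 ± 0.14). Of the small-conductance channels, Kcnn2 was higher in cerebellum (60.3 ± 0.788 against 14.2 ± 1.6 CPM, 2.07 ± 0.07) and Kcnn1 was higher in brain (37.4 ± 1.16 against 7.61 ± 0.577 CPM, -2.29 ± 0.07). The large-conductance pore Kcnma1 (2.28 ± 0.07) and its neuronal auxiliary subunit Kcnmb4 (1.52 ± 0.07) were both higher in cerebellum. So were the auxiliary subunits Kcnab1 (4.86 ± 0.06), Kcnab2 (2.78 ± 0.05), Kcnip4 (4.22 ± 0.07) and Kcnip1 (1.06 ± 0.07). Reads of Kcnmb4 may be mixed with those of Kcnmb4os1 and Kcnmb4os2 on the other strand, which share 31.5% of its exon bases. Kcne3 had 70 counts over the 3 male brains and 2 over the 3 cerebellums.

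**Figure D2:**
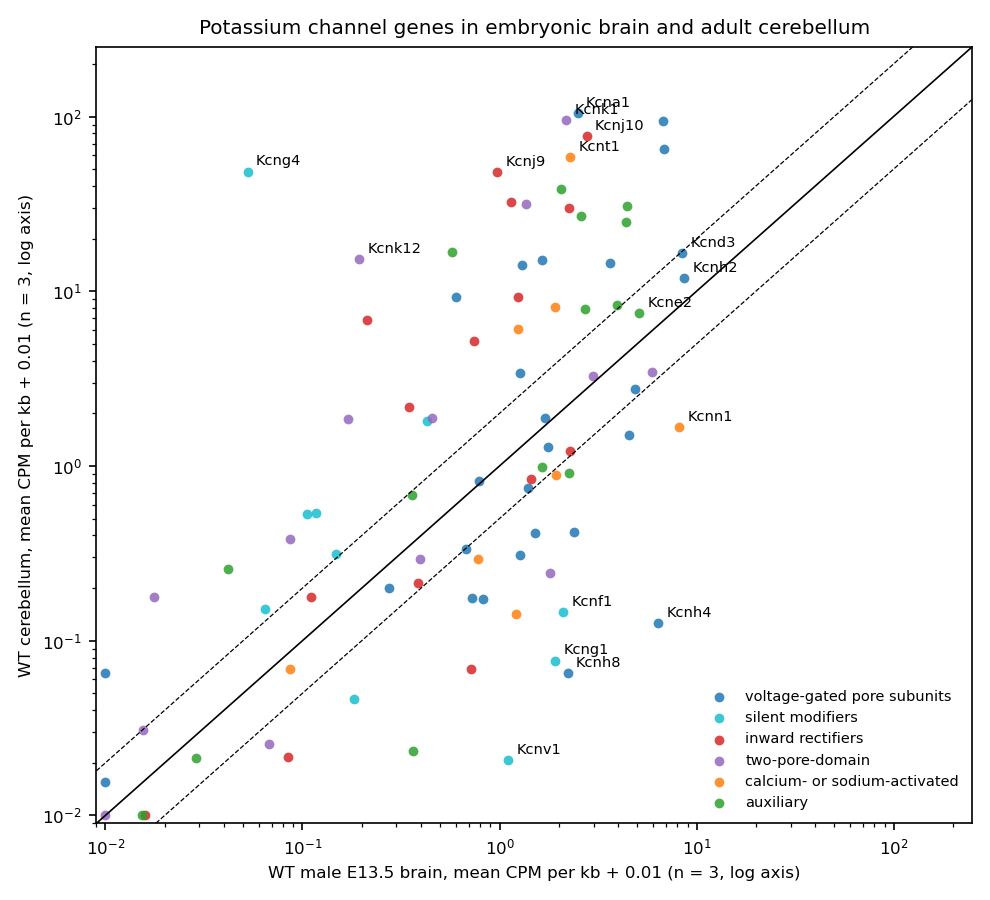
Each point is 1 of 89 members, with its mean CPM per kb + 0.01 in Wiz +/+ male E13.5 brain on the x axis and in Wiz +/+ cerebellum on the y axis (log axes, n = 3 each), coloured by class. The solid line marks equal levels and the dashed lines 2-fold differences, and Kcng4, Kcnk12 and Kcna1 stand far above the lines while Kcnv1, Kcnh8 and Kcnh4 stand far below.

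The same contrast was made in Wiz MommeD30/+ animals. There 65 of 81 members tested were called (44.1% of 16967 genes), 41 higher in cerebellum (22.4% of all genes) and 24 higher in brain (21.7%). All 62 members called in Wiz +/+ animals, which make up 95.4% of those called in Wiz MommeD30/+ animals, were called again in the same direction. The others were Kcna4, Kcnd3 and Kcnj14, named after their values were seen. Of the members tested in both, Kcne2 had opposite signs, at 0.59 ± 0.09 in Wiz +/+ and -0.05 ± 0.17 in Wiz MommeD30/+ animals.

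Summed over subfamilies, the difference was uneven. Kcnj genes together had 953 ± 18.9 CPM in Wiz +/+ cerebellum and 60.1 ± 5.87 CPM in Wiz +/+ male brain (SD, n = 3 each), and Kcng genes 185 ± 2.79 against 9.72 ± 1.67 CPM. Of 4 Kcng genes tested, 2 were called higher in cerebellum and 2 higher in brain, and Kcng4 alone had a mean of 184 CPM in Wiz +/+ cerebellum. The Kcnn total was 77.4 ± 0.517 against 72.1 ± 1.75 CPM, and the Kcnh total 174 ± 5.84 against 135 ± 5.47 CPM. Of the 20 subfamilies, 16 had the higher total in cerebellum under TMM and 14 under total counts, and the Kcnn total was among those that changed direction. Kcnf, Kcnu and Kcnv were among those with the higher total in brain under both. These totals are given with no test.

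Between the genotypes the differences were small. In cerebellum 9 of 74 members tested had an adjusted p of at most 0.05 (edgeR), or 12.2%, against 5.25% of the 15979 genes tested. Of the 9, 7 were lower in Wiz MommeD30/+ cerebellum and 2 higher, and of all genes 2.56% were lower and 2.69% higher. With the further limit of a fold change under 0.7 or over 1.3, Kcnh3 alone was called (0.832% of all genes). The 9 came from all 6 classes, with Kcnh2, Kcnh3 and Kcna2 among the voltage-gated pore subunits, Kcng4, Kcnj3, Kcnk12 and Kcnn2 in 4 others, and the auxiliary subunits Kcnab2 and Kcnip3. Of the 74 members, 37 had a log2 fold change below 0, and 51.3% of all genes did. The genotypes did not overlap for 22 members (29.7%), against 24.0% of all genes.

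Kcnh3 had 4.66, 4.45 and 4.96 CPM in Wiz +/+ and 3.31, 2.68 and 3.79 CPM in Wiz MommeD30/+ cerebellum. Every heterozygous sample lay under every wildtype sample, and the gene fell 1.43-fold (log2 fold change -0.52 ± 0.13, edgeR adjusted p = 0.0308). It is a low-expressed member, with 388 counts over the 3 wildtype libraries. Leaving out heterozygous replicate 1 or 2, or wildtype replicate 1 or 3, ended the call, with adjusted p-values of 0.1, 0.113, 0.0729 and 0.14 in edgeR, and DESeq2 gave 0.0685. The gene spans chr15:99224861-99242817 in GRCm38.

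Kcnk12 fell 1.34-fold, from 27.6, 29.2 and 34 CPM to 20.1, 22.7 and 24.7 CPM (-0.42 ± 0.08, edgeR adjusted p = 0.00486). Kcng4, the silent modifier with few reads in embryonic brain, fell from 186, 185 and 181 CPM to 161, 165 and 165 CPM (-0.16 ± 0.03, edgeR adjusted p = 0.00368). The genotypes did not overlap for either gene. Neither passed the fold limit. Both kept an adjusted p within 0.05 in all 6 fits that left out 1 library, with edgeR values of 0.00295 to 0.0421 for Kcnk12 and 0.00916 to 0.0267 for Kcng4. The same 2 members had the largest log2 differences in favour of cerebellum in the contrast of tissues, which shares the wildtype cerebellums with this one.

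Kcnh2 fell from 59.6, 57 and 56.2 CPM to 48.8, 48.5 and 50.7 CPM (-0.22 ± 0.04, edgeR adjusted p = 0.0042). Kcnj3, the common subunit of neuronal G protein-gated channels, fell from 151, 158 and 162 CPM to 136, 133 and 142 CPM (-0.20 ± 0.03, edgeR adjusted p = 0.0042). Neither gene had overlapping genotypes. Of the partners of Kcnj3, Kcnj9 had 206 ± 3.15 and 204 ± 6.1 CPM and Kcnj6 16.5 ± 0.341 and 16.8 ± 0.198 CPM in the 2 genotypes (SD, n = 3 each). Of the exon bases of Kcnj3, 31.1% also lie in Gm26794 on the other strand, and the strand setting of the counting is not given in the sources used here, so that reads of the 2 genes may be mixed.

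Kcnn2 fell from 60.8, 60.6 and 59.4 CPM to 49.9, 52.9 and 55.8 CPM (-0.19 ± 0.04, edgeR adjusted p = 0.0153). Kcnab2 fell from 173, 168 and 176 CPM to 146, 159.6 and 159.9 CPM (-0.14 ± 0.03, edgeR adjusted p = 0.0216). All 3 heterozygous samples were under the wildtype range for both. The 2 members that rose were Kcnip3, a calcium-binding partner of Kcnd channels also known as a DNA-binding repressor, and the axonal pore subunit Kcna2. Kcnip3 rose from 87.2, 90.3 and 88 CPM to 97.2, 98.2 and 106 CPM (0.19 ± 0.04, edgeR adjusted p = 0.00816). Kcna2 rose from 106, 115 and 109 CPM to 134, 117 and 120.3 CPM (0.17 ± 0.05, edgeR adjusted p = 0.0397). Without heterozygous replicate 1, 5 members were within the threshold (Kcng4, Kcnh2, Kcnip3, Kcnj3 and Kcnk12), and without wildtype replicate 3 there were 4 (the same apart from Kcnip3). Leaving out wildtype replicate 1 took Kcna2, Kcnab2 and Kcnh3 out of the threshold, and with all 16 samples in 1 fit Kcng4 and Kcnk12 were the 2 of the 9 that stayed within it.

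**Figure D3:**
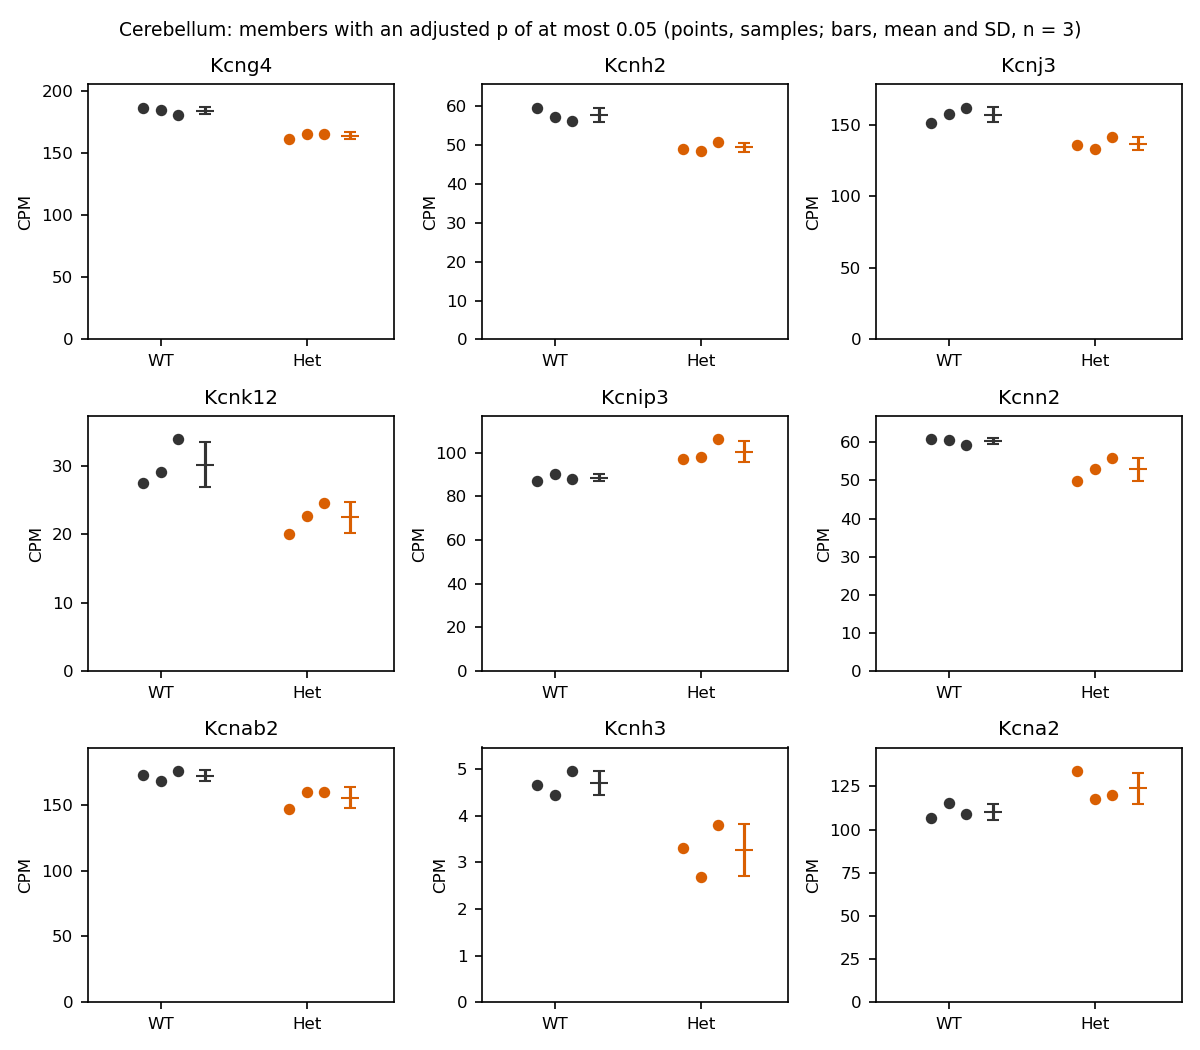
CPM (y axes, from 0) of the 9 members with an adjusted p of at most 0.05 in cerebellum, in the 3 Wiz +/+ (WT, dark) and the 3 Wiz MommeD30/+ samples (Het, orange). Points are samples, the bars beside them give the mean and SD, and in each panel the points of the 2 genotypes do not overlap.

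Members next in order of p in cerebellum were the fast delayed rectifier Kcnc2, with 10.2, 7.31 and 9.71 against 6.39, 7.82 and 6.08 CPM (-0.42 ± 0.12, edgeR adjusted p = 0.0509), and Kcnma1 (0.15 ± 0.05, edgeR adjusted p = 0.0615). Summed by subfamily, 8 of the 20 totals did not overlap between the genotypes, 3 lower and 5 higher in heterozygous cerebellum. Taken singly, 24.0% of all genes did not overlap. Of the lower, the Kcnn total was 76.8 to 77.9 CPM in wildtype and 66.6 to 70.2 CPM in heterozygous cerebellum, and the Kcng total 182 to 188 against 162 to 167 CPM. Most of these totals came from Kcnn2 and Kcng4, with means of 60.3 and 184 CPM in wildtype cerebellum, so that they are no separate result. The Kcnj total was 931 to 968 against 901 to 915 CPM. Of the higher, the Kcna total was 693 to 710.3 against 713 to 741 CPM, the Kcnd total 493 to 524 against 526 to 551 CPM and the Kcnip total 273 to 289 against 291 to 299 CPM, and the others were Kcnmb and Kcnv. The Kcna and Kcnip totals include Kcna2 and Kcnip3, which rose singly, so that they are not independent of those genes. The Kcnv total was low, with Kcnv2 at 0.678 to 0.779 against 0.819 to 1.22 CPM and Kcnv1 at most 0.0742 CPM. Totals were not tested, and of the 20 subfamilies 11 had the lower mean total in heterozygous cerebellum.

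Some cell markers moved with genotype in cerebellum. The summed level of 5 erythroid markers was 160.0 to 249 CPM in wildtype and 290.5 to 528 CPM in heterozygous samples, and 4 of the 5 were higher by the edgeR test. That of 5 oligodendrocyte markers was 4888 to 5259 CPM and 4708 to 4934 CPM, with 2 of 5 lower, and that of 5 progenitor markers 184 to 196 CPM and 176 to 179 CPM, with 2 of 5 lower (Sox2 and Nes). Pax6 held most of the progenitor sum, at 138 to 143 CPM in wildtype and 137 to 140 CPM in heterozygous cerebellum. The part of the cell markers in the differences of the 9 members was not tested.

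Promoters of these genes are printed because the study also asked whether Wiz sits at promoters and at sites of the insulator protein CTCF. Of the 9, 5 have 1 RefSeq window and are shown, 2 have several (Kcnab2 and Kcnip3) and 2 have none (Kcnh3 and Kcnn2). Kcng4, Kcnk12, Kcnj3 and Kcnh2 fell and Kcna2 rose. Each window runs from 250 bases before to 50 bases after the annotated start in GRCm38.p6, 5′ to 3′ on the strand of the gene, with every CG dinucleotide in capitals. That of Kcnh2 belongs to a start inside the gene, which spans chr5:24319589-24351604 (minus strand), and no window covered its 5′ end. The window of Kcna2 also lies inside its gene, which spans chr3:107101146-107115005 (plus strand), and does not reach the 5′ end. The positions are chr8:119635631-119635930 (minus strand) for Kcng4, chr17:87797945-87798244 (minus strand) for Kcnk12, chr2:55435720-55436019 (plus strand) for Kcnj3, chr5:24329542-24329841 (minus strand) for Kcnh2 and chr3:107101317-107101616 (plus strand) for Kcna2.
Kcng4: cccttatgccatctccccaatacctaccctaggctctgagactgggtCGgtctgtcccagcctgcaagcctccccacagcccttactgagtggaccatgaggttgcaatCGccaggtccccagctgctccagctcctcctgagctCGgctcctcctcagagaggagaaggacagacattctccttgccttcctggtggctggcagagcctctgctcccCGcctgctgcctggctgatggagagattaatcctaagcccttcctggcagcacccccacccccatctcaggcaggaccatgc
Kcnk12: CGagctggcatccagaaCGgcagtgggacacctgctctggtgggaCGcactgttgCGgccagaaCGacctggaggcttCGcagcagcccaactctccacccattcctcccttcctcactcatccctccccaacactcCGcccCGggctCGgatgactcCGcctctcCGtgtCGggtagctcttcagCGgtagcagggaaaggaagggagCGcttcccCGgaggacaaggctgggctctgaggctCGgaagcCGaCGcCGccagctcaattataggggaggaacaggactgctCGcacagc
Kcnj3: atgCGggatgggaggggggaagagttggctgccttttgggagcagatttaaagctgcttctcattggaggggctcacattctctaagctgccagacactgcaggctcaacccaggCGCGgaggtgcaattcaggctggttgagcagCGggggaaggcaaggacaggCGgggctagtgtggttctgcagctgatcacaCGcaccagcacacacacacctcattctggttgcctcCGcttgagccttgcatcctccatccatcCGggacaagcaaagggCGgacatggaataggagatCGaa
Kcnh2: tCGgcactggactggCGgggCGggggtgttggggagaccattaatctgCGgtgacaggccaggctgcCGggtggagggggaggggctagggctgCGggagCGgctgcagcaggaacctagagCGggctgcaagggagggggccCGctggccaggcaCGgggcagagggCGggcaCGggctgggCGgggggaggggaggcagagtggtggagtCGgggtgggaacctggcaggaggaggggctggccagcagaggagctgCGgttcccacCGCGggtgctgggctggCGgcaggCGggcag
Kcna2: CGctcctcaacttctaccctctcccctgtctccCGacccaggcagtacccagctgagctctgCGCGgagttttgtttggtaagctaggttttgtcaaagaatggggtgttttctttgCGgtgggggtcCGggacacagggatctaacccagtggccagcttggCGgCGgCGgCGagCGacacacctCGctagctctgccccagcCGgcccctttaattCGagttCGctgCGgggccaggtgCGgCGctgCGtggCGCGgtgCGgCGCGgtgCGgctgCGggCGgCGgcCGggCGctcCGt

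The Kcng4 window holds 4 CG dinucleotides and the Kcnk12 window 20, against 10 for Kcnj3, 19 for Kcnh2 and 31 for Kcna2. The median over all 32841 RefSeq windows was 7. For the 67 members with a window, 92 windows in all, the median was 9 and the range 0 to 49. Of the core of the CTCF motif, 4 forms were searched on both strands, namely AGGGGGC, the form AGGTGGC with a T inside, the form AGAGGGC with an A inside and the form AGATGGC with both. They matched in 24 of the members' windows (26.1%) and in 27.6% of all windows. Of the printed windows that of Kcnh2, which lies inside the gene, held 2 matches, that of Kcng4 held 1 and the others held none. Of all 11 windows of the 9 genes, 4 held a match (36.4%), the others being 2 of the 3 windows of Kcnip3. This describes the letters only.

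In E13.5 brain no member passed the test between genotypes. In males edgeR gave 0 of 81 members an adjusted p within 0.05 (0.196% of 16848 genes), DESeq2 called 0 with the fold limits, and 10 had an unadjusted p under 0.05 (12.3%, against 8.45% of all genes). By adjusted p alone, without the fold limits, Kcnn2 and Kcnh3 each came within 0.05 in 1 of 6 alternative settings that left out no replicate. The smallest p-values were those of Kcnn2, with 15.9, 13.8 and 12.8 CPM in wildtype and 10.2, 11.3 and 12.2 CPM in heterozygous brain (-0.36 ± 0.09, edgeR adjusted p = 0.255), and Kcne2, with 7.88, 10.1 and 9.12 against 10.3, 10.6 and 11.9 CPM (0.31 ± 0.09, edgeR adjusted p = 0.378). Neither overlapped between genotypes, and nor did 12.4% of all genes. Next came the smooth muscle auxiliary subunit Kcnmb1, at most 0.37 CPM in any of these samples (1.15 ± 0.37), Kcnd2 (-0.17 ± 0.06), Kcnh3 (-0.59 ± 0.22) and the intermediate-conductance channel Kcnn4 (-0.95 ± 0.35), with edgeR adjusted p-values of 0.421, 0.473, 0.493 and 0.493. Kcnn4 was also low, at most 0.463 CPM in any male brain.

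In females 0 of 81 members passed in edgeR (0.111% of 17152 genes), DESeq2 called 0, and 11 had an unadjusted p under 0.05 (13.6%, against 6.40% of all genes). Kcns2 had 2.29 and 2.46 CPM in wildtype and 1.36 and 1.57 CPM in heterozygous brain (-0.70 ± 0.18), and the Kcnd partner Kcnip2 6.63 and 7.35 against 5.36 and 5.21 CPM (-0.40 ± 0.12). Kcnt1 (-0.26 ± 0.09), the A-type subunit Kcnc4 (-0.48 ± 0.17), Kcnd2 (-0.23 ± 0.09) and Kcng3 (-1.16 ± 0.45) followed, and all 6 had an edgeR adjusted p of 0.773. The value of Kcng3 rested on few reads, 19 and 19 in wildtype and 5 and 12 in heterozygous brain. Of the 81 members 58 had a log2 fold change below 0, as did 8572 of the 17152 genes, and the median of the members was -0.12. The median was -0.05 without wildtype replicate 2. The summed level of 5 progenitor markers was 785 to 926 CPM in wildtype and 1032 to 1060 CPM in heterozygous female brain, and that of 5 neuron markers 2636 to 2802 and 2489 to 2533 CPM. Their part in the result was not tested.

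With both sexes in 1 fit, 0 of 83 members passed in edgeR (0.477% of 17620 genes), DESeq2 called 0, and 15 had an unadjusted p under 0.05 (18.1%, against 11.8% of all genes). Of the 83, 56 had a log2 fold change below 0, as did 8871 of the 17620 genes, and the median of the members was -0.08. The smallest p-values were those of Kcnd2 (-0.19 ± 0.05, edgeR adjusted p = 0.162), Kcnc4 (-0.44 ± 0.13, edgeR adjusted p = 0.198) and Kcnip2 (-0.31 ± 0.09, edgeR adjusted p = 0.214). Kcnn4 (-0.99 ± 0.31), Kcns2 (-0.39 ± 0.13) and Kcnn2 (-0.23 ± 0.08) had edgeR adjusted p-values of 0.234, 0.263 and 0.282. Of these, Kcnn4 was at most 0.514 CPM in any E13.5 brain. In males alone the median was -0.04 with 46 of 81 members below 0, and without wildtype replicate 1 it was 0.02 with 34 below 0.

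**Figure D4:**
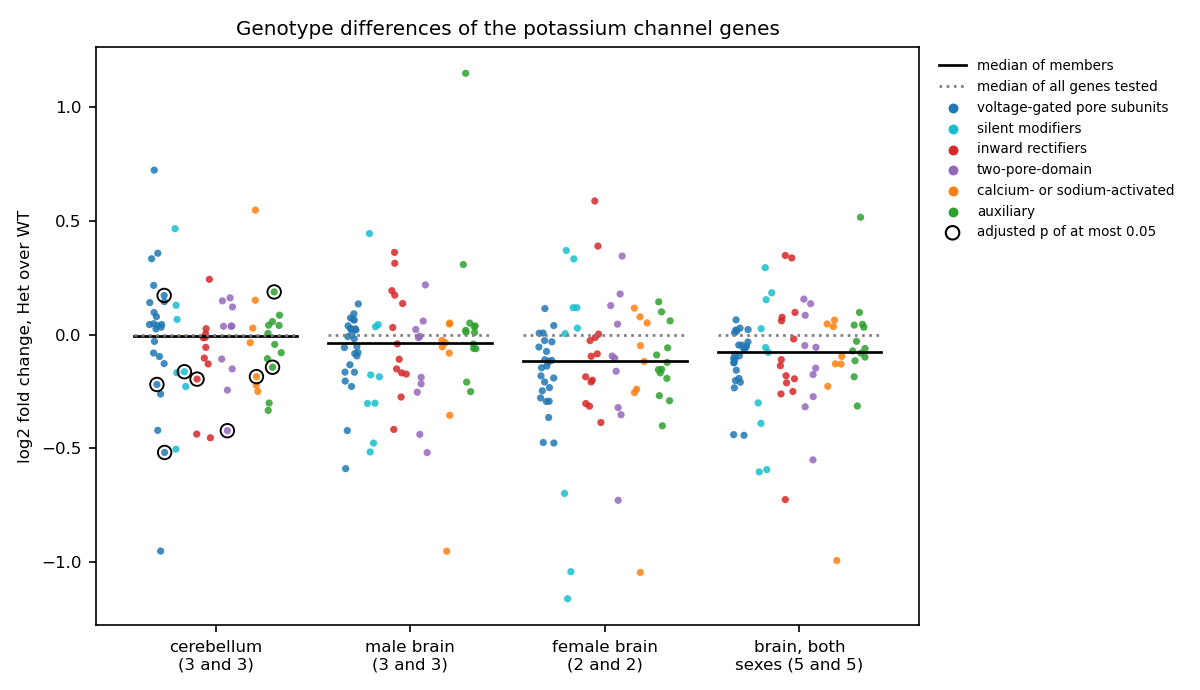
Log2 fold change of Wiz MommeD30/+ over Wiz +/+ (y axis) for members tested, apart from 3 not shown, in cerebellum, male E13.5 brain, female E13.5 brain and both sexes together, coloured by class. Solid bars give the median of the members and dotted bars that of all genes tested, circles mark the 9 members with an adjusted p of at most 0.05, all in cerebellum, and the members' median is lowest in female brain (-0.12).

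The difference between tissues in the genotype effect was tested itself. No member of 82 passed in edgeR (0.260% of 17337 genes), 16 had an unadjusted p under 0.05 (19.5%, against 9.72% of all genes), and DESeq2 called 1, Kcnd2. The log2 effect in cerebellum minus that in male brain was -0.30 ± 0.07 for Kcnh2 (edgeR adjusted p = 0.103) and 0.26 ± 0.07 for Kcnd2 (edgeR adjusted p = 0.162). Thus the differences that passed in cerebellum and not in brain were not shown to differ between the tissues. Between the sexes, 0 of 83 members (0% of 17620 genes) passed in edgeR, DESeq2 called 0, and 3 had an unadjusted p under 0.05 (3.98% of all genes).

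Of 18 genes that work with these channels and lie outside the symbol rule, 17 were tested in cerebellum and 2 had an adjusted p of at most 0.05 (5.25% of all genes), both lower (2.56%). The pacemaker channel Hcn2 fell from 154, 129 and 143 CPM to 114, 123 and 125 CPM (-0.23 ± 0.05, edgeR adjusted p = 0.0106). Abcc8, a sulfonylurea receptor of ATP-sensitive channels, fell from 129, 131 and 123 CPM to 113, 112 and 117 CPM (-0.17 ± 0.03, edgeR adjusted p = 0.0085). In each of the 3 brain comparisons 0 of 16 passed in edgeR. Between the tissues 10 of 17 were called higher in cerebellum (22.6% of all genes) and 3 higher in brain (21.5%), and Cntnap1, which organises the axonal regions beside nodes of Ranvier, had 469 ± 11.2 against 10.5 ± 2.42 CPM.

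Kcne1l, an auxiliary subunit that the symbol rule misses and that is not among the 18, was named after its values were seen. It had 8.73, 8.22 and 9.64 CPM in wildtype and 11.7, 11.2 and 11.7 CPM in heterozygous male brain, and 9.68 and 10.3 against 13.4 and 11.1 CPM in female brain. The genotypes did not overlap in either sex, and nor did those of 12.4% of all genes in male brain and 36.0% in female brain. With both sexes in 1 fit the gene rose (0.34 ± 0.06, edgeR adjusted p = 0.0369) without passing the fold limit. Leaving out 1 library at a time gave edgeR adjusted p-values of 0.0113 to 0.153, within 0.05 in 3 of 10 fits (those without heterozygous female replicate 2, wildtype female replicate 2 or wildtype male replicate 3), and the replicate block gave 0.102. In cerebellum its log2 fold change was 0.05 ± 0.08.

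Kcne2 and Kcnj13, known for the choroid plexus that secretes cerebrospinal fluid, varied within groups together with the choroid plexus marker Ttr. Kcnj13 had 11.2, 12.6 and 11.4 CPM in wildtype and 10.2, 5.62 and 9.8 CPM in heterozygous cerebellum (-0.45 ± 0.14, edgeR adjusted p = 0.0763), and Kcne2 13.5, 13.2 and 13.1 and 13.2, 6.63 and 11.7 CPM (-0.33 ± 0.15, edgeR adjusted p = 0.227). Ttr had 1978, 2009 and 1771 and 2064, 963 and 2032 CPM in the same samples. All 3 genes were lowest in heterozygous replicate 2. In the 2 wildtype female brains Ttr had 390.4 and 182 CPM and Kcne2 15.3 and 7.13 CPM, both higher in replicate 1. The part of choroid plexus in the values of these 2 members was not tested, and 49.1% of the exon bases of Kcnj13 also lie in Gigyf2 on the other strand.

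**Figure D5:**
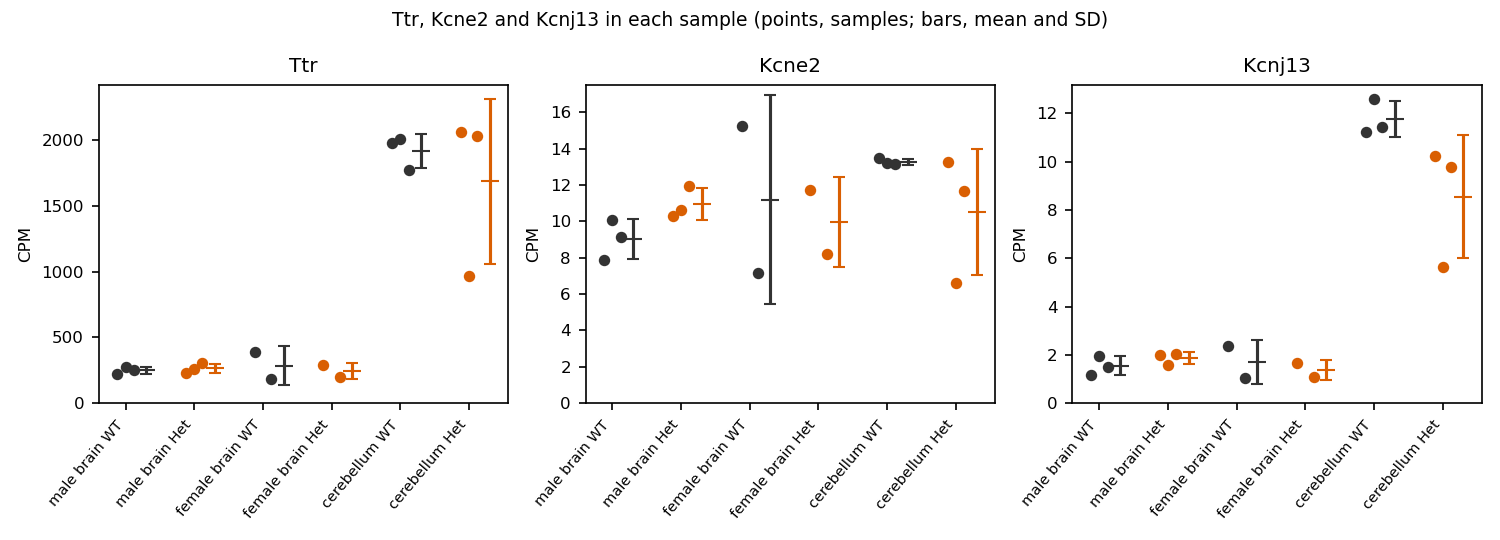
CPM (y axes, from 0) of Ttr, Kcne2 and Kcnj13 in each sample by tissue, sex and genotype (x axis). Points are samples and the bars beside them give the mean and SD (n = 3, or 2 for female brain), and in each panel 1 heterozygous cerebellum, replicate 2, lies under the other 5 cerebellums.

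The rest of the members gave little signal. Over all comparisons, 9 were never tested (Kcna10, Kcna7, Kcne1, Kcnj1, Kcnk15, Kcnk16, Kcnk18, Kcnk7 and Kcnmb3), with at most 48 counts over the 16 samples, and Kcnk16 was at 0 in each. At this depth their levels could not be compared.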

How the data were processed

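RNA-seq of polyadenylated RNA was analysed in 16 samples, and 3 ChIP-seq samples of the series were not analysed here. The authors aligned single-end 100-base reads to mm10 with TopHat2 2.0.11, counted them over gene exons with HTSeq 0.6.1 and deposited whole-number counts per Ensembl gene, 16386029 to 50459755 per sample. The counting mode, strand setting and annotation release are not given in the sources used here. Symbols, biotypes, positions and exon lengths came from GENCODE M21 (GRCm38), and promoters from RefSeq (GRCm38.p6).

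Counts were tested with edgeR 4.0.16 (quasi-likelihood, TMM, filterByExpr with a minimum count of 10, Benjamini-Hochberg over all genes) in R 4.3.3, with only the samples of each comparison in the fit, and the test was checked on simulated data. That check used 2-fold changes and the same spread for every gene, so it does not cover differences as small as those between genotypes in cerebellum. The adjusted p threshold was 0.05. A genotype call also needed a ratio outside 0.7 to 1.3, and a tissue call a difference of at least 2-fold. Intervals are 95% (1.96 SE). Tables and figures used Python 3.11.15. Nothing in the labels says whether tissues shared a batch or whether replicates of a genotype were littermates, so p-values measure the spread between these samples. No pair of libraries agreed within sampling noise.

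Genes were named by rule. In a genotype comparison these were the members with an adjusted p of at most 0.05, filled up to the 6 smallest p where fewer passed. Between tissues they were the 2 members highest per kb in each class and tissue, the 8 largest folds in each direction and a list of textbook members. Results of 3 members are not reported here, though counts over the members include them. The members and all lists were chosen with earlier results of these data known. Alternatives were DESeq2 1.42.0, its size factors in edgeR, no filter, a mean count of at least 50, a replicate block, all 16 samples in 1 fit, no fold limits and leaving out each replicate. Total-count scaling was planned for the subfamily totals. Its use on the tissue calls, and recomputing the cerebellum count without fold limits, the medians and Kcne1l, were chosen after seeing the data.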

Additional observations from a re-analysis of the deposited data

How the results depend on the processing

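In cerebellum the count of 1 member called with the fold limits became 0 with the DESeq2 Wald test and with all 16 samples in 1 fit, 9 with no fold-change limits, and 0 to 3 when a replicate was left out (0 without heterozygous replicate 1 or wildtype replicate 3, and 3 without wildtype replicate 2). The count of 9 without fold limits became 2 with all 16 samples in 1 fit (Kcng4 and Kcnk12), 15 with no filter on low counts, and 4 to 13 when a replicate was left out. In male brain the count of 0 became 2 with no filter (Kcng1 and Kcnh3) and 0 to 1 when a replicate was left out, and in female brain 0 to 1. For the difference between tissues in the genotype effect, 0 became 1 with the DESeq2 Wald test (Kcnd2), 7 with no filter and 0 to 1 when a replicate was left out (Kcnh2). Kcnk10 changed sign between tissues under total counts (log2 difference -0.0704), and the counts of 62 and 65 tissue calls stayed between 52 and 68 under every alternative run. The cause of these changes was not tested. Same-numbered replicates did not deviate together (correlations from -0.10 to -0.01 in cerebellum, -0.23 to -0.01 in male brain and -0.06 in female brain), so the numbers were not taken as pairs. With the replicate block, 11 members passed the 0.05 threshold in cerebellum, 1 of them past the fold limits, 0 were called in brain, and 62 and 65 between tissues. Members with few counts are limited by depth. The share of all genes called under each alternative was not set beside these counts. They describe only how the calls among the members depend on the settings.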
